A study of Mus musculus with 4 samples.

Results

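The genes described here are 10 members of the antioxidant programme that the transcription factor NRF2 is known to drive: Nfe2l2, which encodes NRF2, its repressor Keap1, and Nqo1, Hmox1, Gclc, Gclm, Srxn1, Txnrd1, Gsr and Sqstm1. They were taken by name, as the probe sets (groups of array probes) that the platform table assigns to 1 gene symbol of this set; the rule uses no measured value, although the set was proposed with earlier results of these data known. All 10 were measured, among 22180 named genes in all. Keap1 was read by 2 probe sets, which were averaged on the log2 scale, and each of the other genes by 1.

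Expression was measured on 4 arrays of RNA from primary hepatocytes, the main cell type of liver, freshly isolated from male mice 2 months of age and kept for 16 h in serum-free medium. The groups were wild-type cells without fructose (WT control), wild-type cells with 25 mM fructose (WT fructose), Chrebp-KO cells without fructose (KO control) and Chrebp-KO cells with 25 mM fructose (KO fructose), with 1 array each. ChREBP, the product of Mlxipl, is a sugar-responsive transcription factor, and the design asks what fructose does to expression with and without it. The labels do not give the deleted part of the gene, the number of mice or whether cells were pooled, and their extraction text speaks of liver RNA although the cell type is given as primary hepatocytes. Because each group has 1 array, there is no spread between replicates: no error, p-value or test is given for any value below, and no difference can be set against array-to-array variation. Precision is limited by this number of arrays.

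NRF2 is a basic leucine zipper factor that is held at a low level in unstressed cells, because KEAP1 binds it and presents it to a CUL3 ubiquitin ligase. Oxidants and electrophiles modify KEAP1, NRF2 then accumulates, pairs with small MAF proteins and binds antioxidant response elements near genes for glutathione synthesis, thioredoxin recycling, quinone reduction and heme breakdown. In liver this programme is known for protection against reactive drug metabolites. The array reads mRNA, so it does not show the amount of NRF2 protein, where most of its control lies.

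The antioxidant response element is shown because it is the sequence by which these genes are known to answer NRF2. Promoter windows from RefSeq (GRCm38.p6; 250 bases before to 50 after a start site) were matched by symbol for 7 of the 10 genes, with 3 windows for Txnrd1; Hmox1, Gclc and Gsr were not matched. The element's core TGACNNNGC was searched on both strands, and 4 of the 7 genes held it in a window (Nfe2l2, Gclm, Srxn1 and Txnrd1), against 14.0% of the 27025 genes with a window and 12.4% of all 32851 windows. Keap1, Nqo1 and Sqstm1 had no match of these letters in this window, from which nothing follows about binding elsewhere. The 9-base form TGACTCAGC, which contains the AP-1 motif TGACTCA, was found in the windows of 0 of the 7 genes and in 0.454% of all windows. The matches that lie before the start site are printed 5′ to 3′ on the gene's strand, with the core match in capitals.

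The Gclm match begins 134 bases before the start site, on the opposite strand to the gene, within chr3:122245407-122245447 (gene on the + strand).

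Gclm: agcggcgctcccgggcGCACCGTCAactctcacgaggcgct

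The Nfe2l2 match begins 240 bases before the start site, on the strand of the gene, within chr2:75704879-75704913 (gene on the - strand).

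Nfe2l2: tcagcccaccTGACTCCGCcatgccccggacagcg

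The Txnrd1 match begins 92 bases before the second of its start sites, on the opposite strand to the gene, within chr10:82859098-82859138 (gene on the + strand).

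Txnrd1: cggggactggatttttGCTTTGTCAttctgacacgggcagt

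The Srxn1 match lies past its start site, beginning 28 bases after it, and is not printed. A match is a description of letters and was not tested as a site of binding.

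Some facts of the whole series frame these values. A background of 4.764 (log2) was set at the 95th percentile of 1105 olfactory receptor genes, which hepatocytes are not known to express, and a gene counts as detected in a comparison when at least 1 of its arrays lies above it; 10368 to 10447 genes were above it per array. Of 12 hepatocyte markers, 11 were above background on all 4 arrays, with Alb, the albumin gene, between 12.58 and 12.66, and Ass1 was below it on all 4. With fructose, 7 of the 11 detected markers were above 0 in WT and 10 in KO, beside 47.5% and 49.4% of all detected genes. Their medians were 0.12 and 0.10. The highest were Tat, a glucocorticoid-induced enzyme gene (2.22 in WT and 2.01 in KO), and Cps1, of the urea cycle (1.41 and 1.40). Hnf4a, a hepatocyte transcription factor gene, was lowest (-0.75 and -0.50). Mlxipl, the targeted gene, had KO minus WT values of -0.66 (log2) in control medium and -1.06 in fructose medium. Its KO levels, 7.42 in control and 7.37 in fructose medium, stayed above background. Whether its probe set lies outside the deleted part is not known, and the reason for the remaining signal was not tested. In control medium KO minus WT ran from -0.34 at the 5th percentile of detected genes to 0.29 at the 95th, whereas the same range for fructose minus control was -0.83 to 0.80 in WT and -0.61 to 0.65 in KO.

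All 10 antioxidant genes lay above background on every array, the nearest being Keap1, whose lowest value was 1.73 above it. Hmox1 was the member with a large fructose difference, 2.83-fold in WT and 2.63-fold in KO. Srxn1, Gclm and Sqstm1 were higher by 1.18-fold to 1.43-fold in both genotypes, and Nqo1 and Gsr were lower in both by 1.05-fold to 1.21-fold. None of the 10 differed by 1.5-fold or more between the genotypes in either medium.

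**Figure D1:**
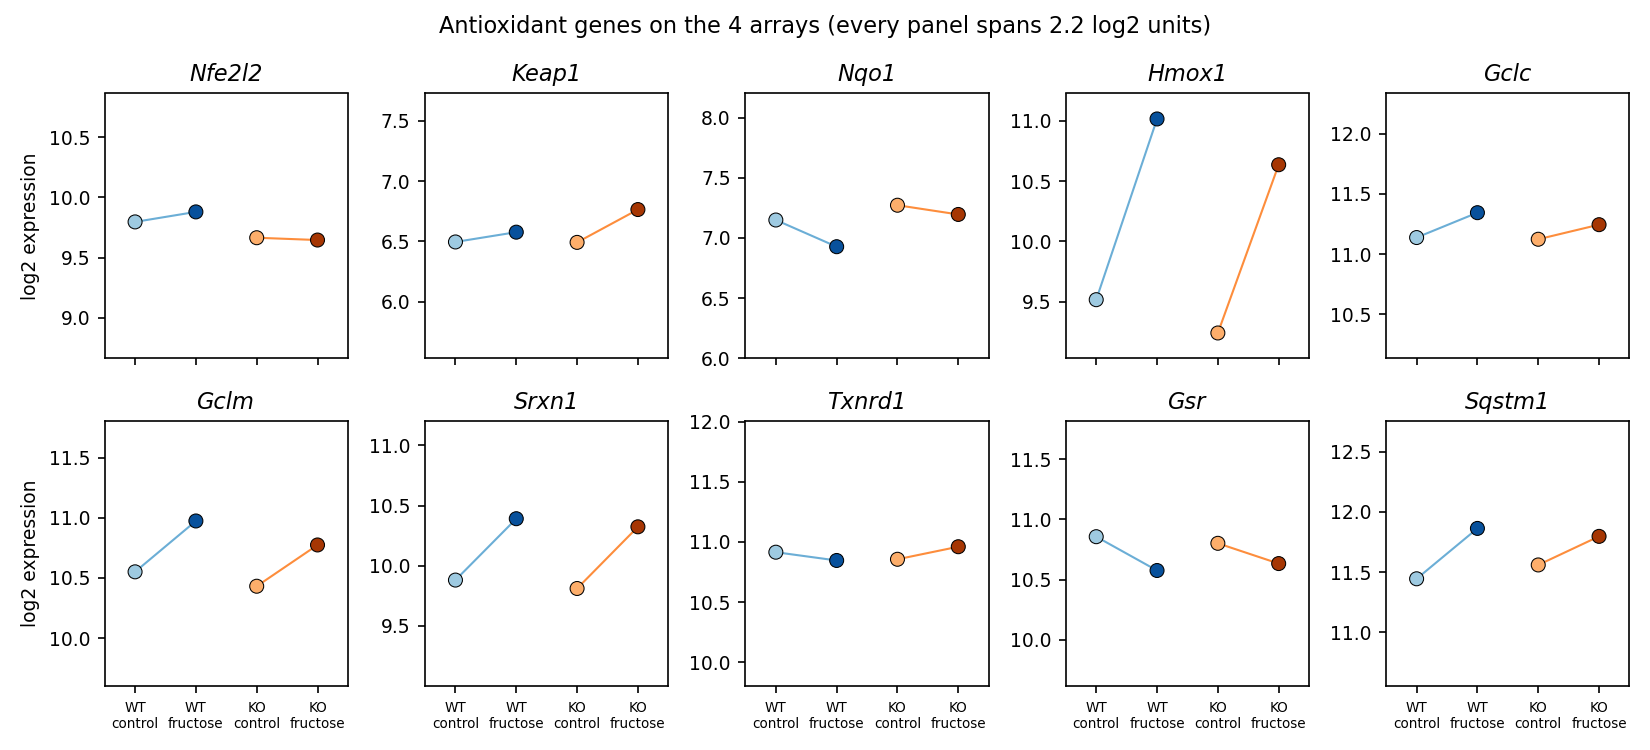
Log2 expression of each of the 10 antioxidant genes on the 4 arrays (1 point per array, no replicates; a line joins the 2 media within a genotype), with every panel spanning the same 2.2 log2 units so that slopes can be compared. Hmox1 goes from 9.52 to 11.02 in WT and from 9.24 to 10.64 in KO, and Txnrd1 stays within 0.11 over all 4 arrays.

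Hmox1 encodes heme oxygenase 1, which opens the heme ring to biliverdin, carbon monoxide and iron. Its log2 level was 9.52 without and 11.02 with fructose in WT cells, and 9.24 without and 10.64 with fructose in KO cells. Both fructose arrays were above both control arrays, and within each medium the WT array was above the KO array. The fructose difference was 1.501 in WT and 1.40 in KO, so the difference of the 2 effects was -0.10. In WT it was the gene ranked 116 from the top among 10814 detected genes, and in KO the gene ranked 71 among 10752. Its range over the 4 arrays, 1.78, was larger than that of 98.5% of the 11050 genes detected on any array, and no other member's range exceeded 0.58.

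Hmox1 was the 1 of 10 members at least 2-fold higher with fructose in WT, where 3.1% of all detected genes passed that size, and again 1 of 10 in KO, where 1.68% did. With 10 members, a single gene is the smallest count above 0. At least 2-fold lower with fructose were 0 of 10 members in each genotype, beside 3.01% of genes in WT and 1.18% in KO. At 1.5-fold the counts of members did not grow: 1 of 10 was higher in each genotype, beside 9.46% of genes in WT and 6.11% in KO, and 0 were lower, beside 10.8% and 5.75%. The median fructose difference of the 10 genes was 0.14 in WT, beside -0.026 over all detected genes, and 0.18 in KO, beside -0.0041.

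Nearest to Hmox1 in the shape of the 4 values, by the root mean square difference of centred log2 values over 4 arrays and among 10212 genes searched, were Per1 (0.031), Rnd1 (0.038) and Vegfa (0.058). Per1, a circadian clock repressor, was higher with fructose by 1.43 in WT and 1.45 in KO. Rnd1 was higher by 1.41 and 1.38, and Vegfa, the vascular growth factor, by 1.54 and 1.35. With 4 arrays many genes can share a shape, and this likeness is a description of these arrays.

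Gclc and Gclm encode the catalytic and the modifier subunit of glutamate-cysteine ligase, the rate-limiting enzyme of glutathione synthesis. Gclm was measured at log2 10.55 without and 10.97 with fructose in WT, against 10.43 and 10.77 in KO. Both fructose arrays were above both control arrays, by 0.42 in WT (1.34-fold) and 0.34 in KO (1.27-fold). Gclc had levels of 11.14, 11.34, 11.12 and 11.24 on the arrays in that sequence. It kept the same order of arrays as Gclm with smaller steps, 0.21 with fructose in WT and 0.12 in KO. In both media the KO array was the lower of the 2 for each subunit, with KO minus WT values of -0.12 in control and -0.20 in fructose medium for Gclm and of -0.014 and -0.10 for Gclc, the first of which turned above 0 with median centring or loess.

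Gsr encodes glutathione reductase, which returns oxidised glutathione to its reduced form with NADPH. Its log2 level was 10.86 (control) and 10.57 (fructose) in WT, and 10.80 (control) and 10.63 (fructose) in KO. Both control arrays were above both fructose arrays, opposite to the order for the ligase subunits. The fructose difference was -0.28 in WT and -0.17 in KO, and the genotypes were within 0.058 of each other in each medium.

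Srxn1 and Txnrd1 belong to the thioredoxin and peroxiredoxin branch. Srxn1 encodes sulfiredoxin, which repairs overoxidised peroxiredoxins. Its log2 level was 9.88 without and 10.39 with fructose in WT, against 9.81 and 10.32 in KO. The fructose difference was 0.51 in each genotype (1.42-fold in WT and 1.43-fold in KO), and the 2 effects differed by 0.0026. This was a higher value than that of 88.1% of detected genes in WT and 91.9% in KO.

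Txnrd1 encodes the cytosolic thioredoxin reductase, a selenoprotein that keeps thioredoxin reduced. It was measured at log2 10.92 (control) and 10.85 (fructose) in WT, and 10.86 (control) and 10.96 (fructose) in KO. These 4 values lay closer together than those of any other member, within 0.11, a smaller range than that of all but 4.53% of detected genes. The fructose difference was -0.069 in WT and 0.10 in KO.

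Nqo1 encodes the quinone reductase that is often used as a marker of NRF2 activity. Its log2 level was 7.15 without and 6.93 with fructose in WT, against 7.27 and 7.20 in KO. Each fructose array was below the control array of its genotype, with differences of -0.22 in WT and -0.077 in KO, and both KO arrays were above both WT arrays. The KO arrays were higher by 0.12 in control medium and by 0.27 in fructose medium (1.20-fold), the largest positive genotype difference among the 10 genes.

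Sqstm1 encodes p62, a receptor for selective autophagy that can also bind KEAP1 and so release NRF2. It was measured at log2 11.44 (control) and 11.86 (fructose) in WT, and 11.56 (control) and 11.80 (fructose) in KO. Both fructose arrays were above both control arrays, by 0.42 in WT (1.34-fold) and 0.24 in KO (1.18-fold). KO minus WT was 0.11 in control medium and -0.066 in fructose medium.

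Nfe2l2 itself was measured at log2 9.80 without and 9.88 with fructose in WT, against 9.67 and 9.65 in KO. Both WT arrays were above both KO arrays, with KO minus WT values of -0.13 in control medium and -0.23 in fructose medium (1.18-fold). Fructose made little difference to its mRNA, 0.083 in WT and -0.019 in KO.

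Keap1, averaged over its 2 probe sets, was measured at log2 6.49 (control) and 6.58 (fructose) in WT, and 6.49 (control) and 6.76 (fructose) in KO. The KO fructose array stood highest, and the other 3 lay close together. The 2 probe sets did not give the same picture. The brighter one read 7.96, 8.02, 7.76 and 7.82 on these arrays, giving KO minus WT values of -0.19 in control medium and -0.21 in fructose medium. The dimmer one read 5.03, 5.13, 5.22 and 5.71, nearer to the background of 4.764, giving 0.18 and 0.58. The direction of any genotype difference in Keap1 therefore differs between its probe sets, and the KO fructose difference of 0.27 in the average was 0.052 in the brighter set and 0.49 in the dimmer.

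**Figure D2:**
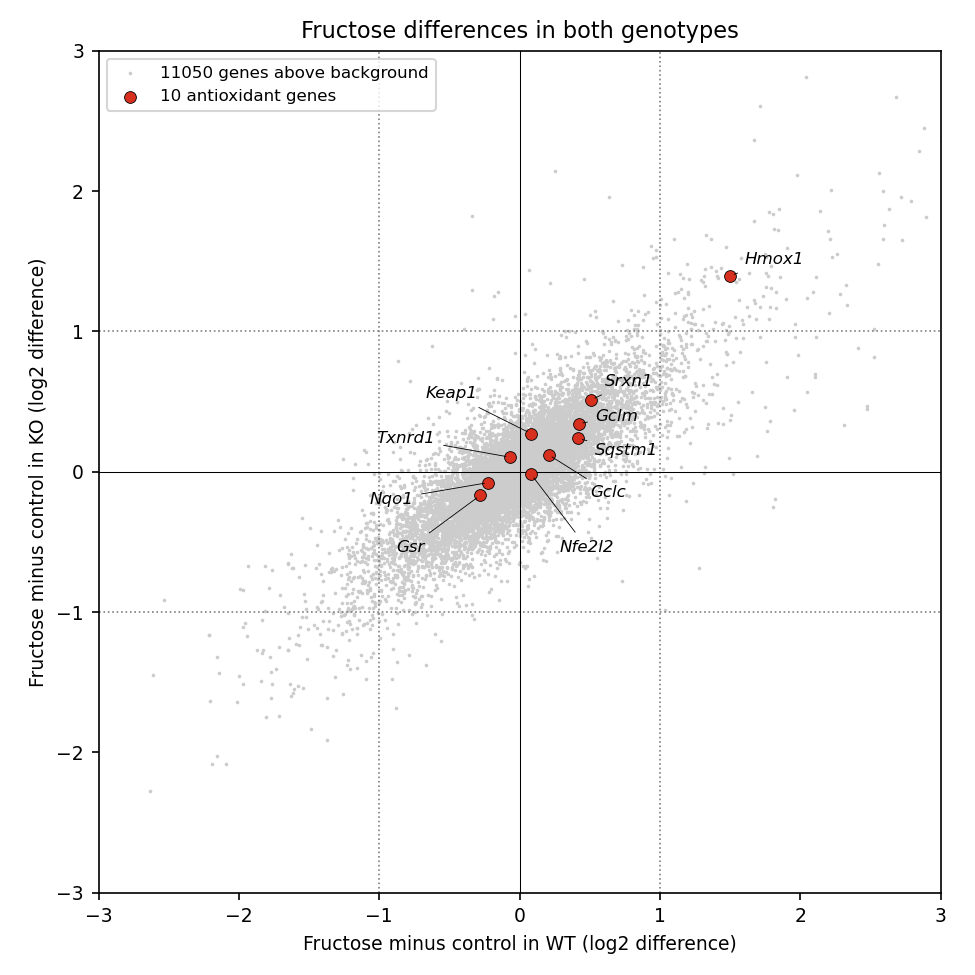
Fructose minus control as a log2 difference in WT (horizontal) and in KO (vertical) for 11050 genes above background on any array (grey) and the 10 antioxidant genes (red, named); dotted lines mark 2-fold, and 22 genes lie outside the plotted range of 3 log2 units. Hmox1 sits past 2-fold on both axes, at 1.501 and 1.40, and the other 9 genes reach at most 0.51 on either.

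The fructose comparisons of the 2 genotypes use separate arrays, so their directions can be set side by side. The sign of the fructose difference was shared by both genotypes for 8 of the 10 genes, the exceptions being Nfe2l2 and Txnrd1, which were near 0 in each. Over the 10516 genes detected in both comparisons the sign was shared by 78.4%, so the count for the 10 is near that of genes in general. The difference between the fructose effects, KO minus WT, lay between -0.18 (Sqstm1) and 0.19 (Keap1) for all 10, with a median of -0.039 beside 0.029 over all genes. At 2-fold this difference called 0 of 10 members, where 0.443% of genes were higher and 0.588% lower, and at 1.5-fold again 0, where 2.86% were higher and 2.6% lower.

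**Figure D3:**
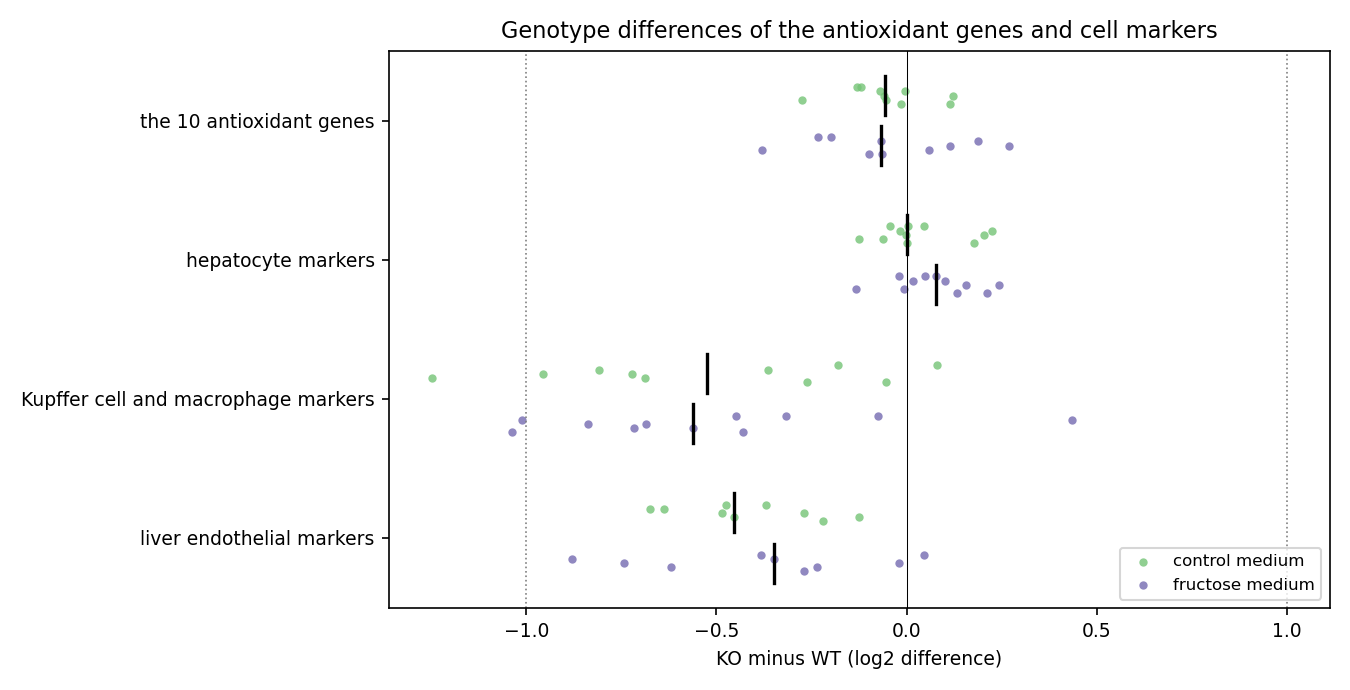
KO minus WT as a log2 difference in control medium (green) and fructose medium (purple) for the 10 antioxidant genes and for markers of hepatocytes, Kupffer cells and macrophages, and liver endothelium; each point is a gene detected in that comparison, bars are list medians and dotted lines mark 2-fold. The antioxidant genes stay within 0.38 of 0, and the macrophage markers have medians of -0.53 and -0.56.

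Between the genotypes, 0 of 10 members differed by 2-fold in control medium, where 0.0373% of genes were higher in KO and 0.196% lower. In fructose medium it was again 0 of 10, beside 0.543% higher and 0.739% lower. At 1.5-fold the members' counts were also 0, where 0.476% of genes were higher and 1.1% lower in control medium, and 2.45% higher and 2.86% lower in fructose medium. In control medium 2 of the 10 genes had a value above 0, beside 48.0% of all detected genes, and the 8 below it included Keap1 and Gclc, whose sign turned with median centring or loess; the median was -0.057 beside -0.0077 over all genes. In fructose medium 4 of 10 were above 0, beside 52.5%, with a median of -0.067 beside 0.015. The genotype comparisons in the 2 media also use separate arrays, and 6 of the 10 genes had the same sign in both, beside 59.4% of the 10358 genes detected in both.

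Hmox1 had the lowest genotype values of the 10, -0.28 in control medium and -0.38 in fructose medium, lower than all but 7.80% and 7.21% of detected genes. Macrophages are known to express Hmox1, and most of their detected markers were lower in KO as well. Of the macrophage markers, 9 of 10 detected were below 0 in control medium and 10 of 11 in fructose medium. Over all detected genes 48.0% were above 0 in control medium and 52.5% in fructose medium. Timd4, a Kupffer cell receptor, had KO minus WT values of -0.81 in control and -1.01 in fructose medium. Fcgr1, an Fc receptor, had -1.25 and -1.04, and Clec4f, a Kupffer cell lectin, had -0.18 and -0.45. The detected marker above 0 in each medium was Cd68, with 0.08 and 0.44, and Csf1r was near 0, at -0.054 and -0.075. The median level of all 14 markers was 5.65 (control) and 5.84 (fructose) in WT and 5.35 and 5.27 in KO, and the log2 of their summed level, which Cd68 dominates, was 11.53 and 11.33 in WT and 11.44 and 11.50 in KO. Vsig4, C1qc and Cd163 were below background on every array. The part of macrophage RNA in the Hmox1 genotype values was not tested, and in such bulk samples fewer cells of a type and less RNA per cell cannot be told apart. With fructose, the same markers had medians of 0.21 in WT and 0.092 in KO, beside 1.501 and 1.40 for Hmox1.

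Endothelial markers were also lower in KO, with medians of -0.46 in control medium (9 of 9 detected below 0) and -0.35 in fructose medium (8 of 9). Over all detected genes 48.0% and 52.5% were above 0. With a stricter filter on dim genes the median in fructose medium was -0.62. Without the filter the median in control medium was -0.32. The values were -0.64 and -0.88 for Dnase1l3, a secreted nuclease gene, and -0.48 and -0.74 for Fcgr2b, an Fc receptor gene. Of the 7 measured cholangiocyte markers, Krt7, Krt19, Epcam and Cftr were below background on all arrays and only Cldn3, Cldn4 and Sox9 were above it. In fructose medium KO minus WT was 1.97 for Cldn4, a tight junction gene, 0.61 for Cldn3 and -0.086 for Sox9. In control medium the values were 0.31, -0.13 and -0.44 in that sequence. Of the 10 stellate and fibroblast markers, 7 were below background on all arrays and the other 3 included Reln and Dcn. Reln was below background on both control arrays and near it with fructose, at 4.81 in WT and 5.17 in KO. Its KO minus WT value in fructose medium was 0.36. Dcn had KO minus WT values of -0.50 in control medium and -0.22 in fructose medium.

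**Figure D4:**
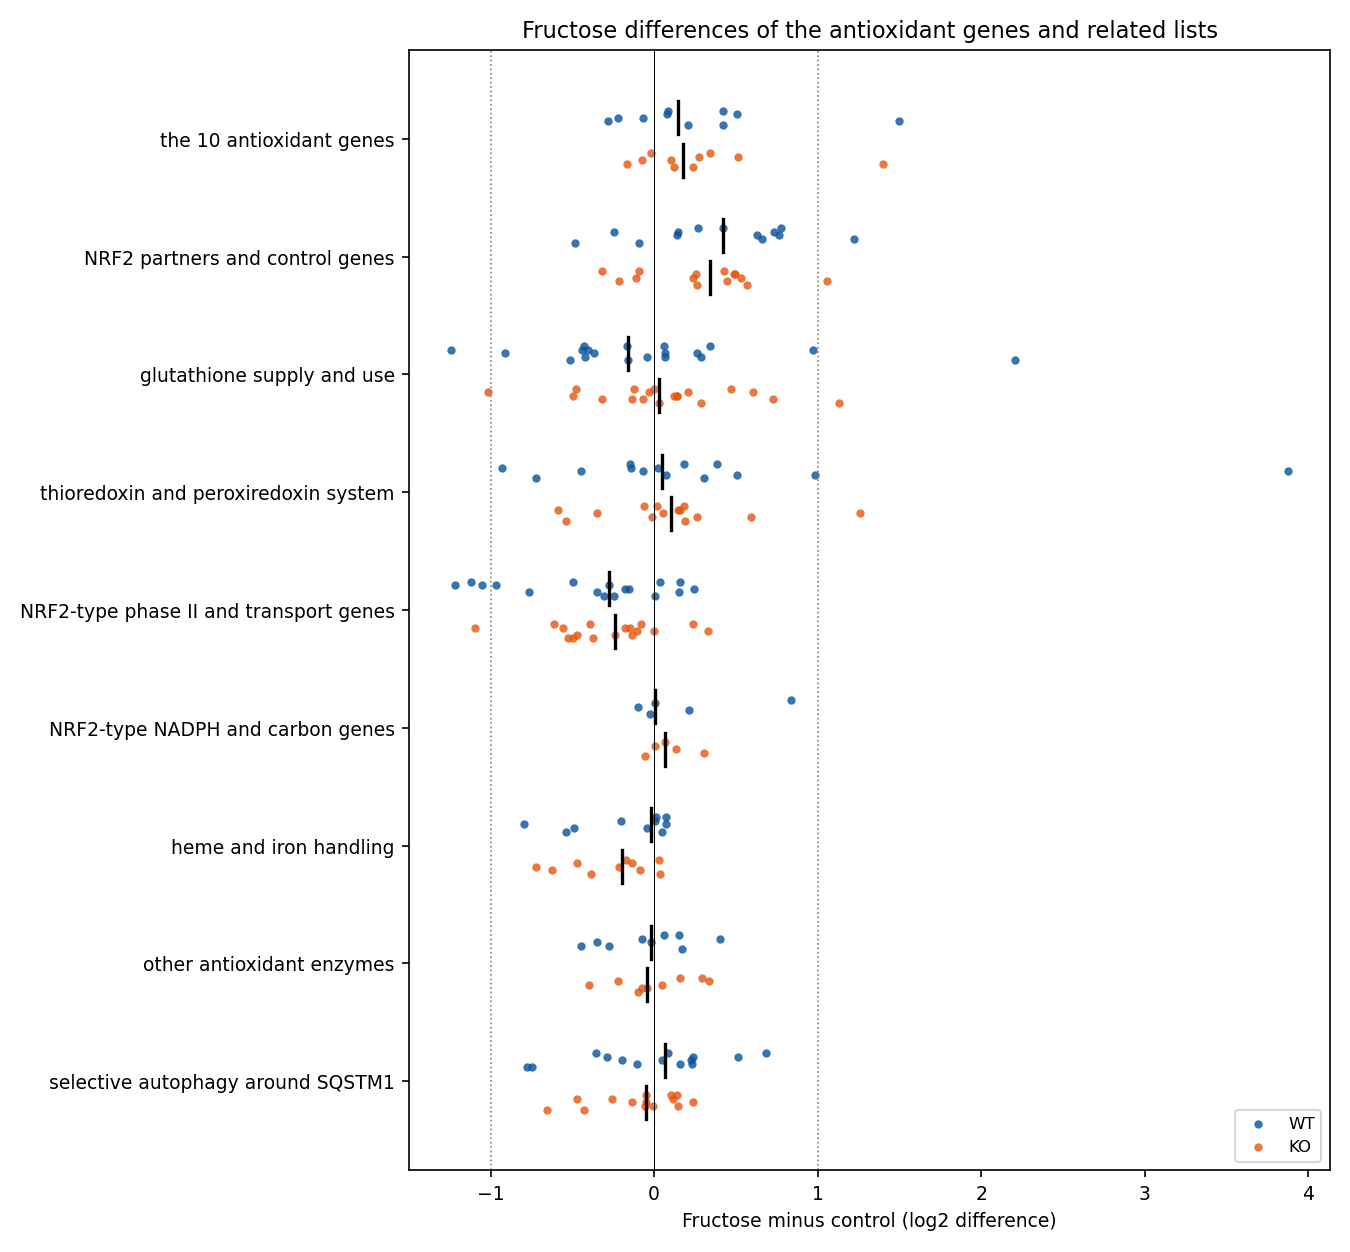
Fructose minus control as a log2 difference in WT (blue) and KO (orange) for the 10 antioxidant genes and 8 related lists; each point is a gene detected in that comparison, bars are list medians and dotted lines mark 2-fold. The NRF2 partners and control genes have medians of 0.42 in WT and 0.34 in KO, and the phase II and transport genes -0.28 and -0.24.

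The partners of NRF2 and the genes that control it were, with fructose, more often higher than lower. Of the detected genes of this list, 10 of 13 were above 0 in WT and 10 of 14 in KO. Over all detected genes 47.5% and 49.4% were above 0, and the medians of the list were 0.42 and 0.34. At least 2-fold lower were 0 in each genotype, beside 3.01% of all genes in WT and 1.18% in KO. At least 2-fold higher was 1 gene in each genotype, beside 3.1% and 1.68%. That gene was Bach1, which encodes a heme-sensing repressor that competes with NRF2 at antioxidant response elements and is known for silencing Hmox1. Bach1 was measured at log2 7.82 without and 9.04 with fructose in WT, against 7.47 and 8.52 in KO, a fructose difference of 1.22 in WT and 1.06 in KO. Like Hmox1, it was high on both fructose arrays and lower in KO than in WT within each medium, with KO minus WT values of -0.35 and -0.52. The small MAF genes, whose products pair with NRF2 or BACH1, were also higher with fructose, Mafg by 0.77 in WT and 0.43 in KO, Mafk by 0.77 and 0.53, and Maff by 0.73 and 0.49. Cul3, the scaffold of the KEAP1 ubiquitin ligase, was higher by 0.42 and 0.49.

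Genes of glutathione supply and use outside the 10 went both ways with fructose. Of 19 detected in WT, 1 was at least 2-fold higher and 1 lower, with a median of -0.16. The same counts were found among 19 in KO, with a median of 0.028. Over all detected genes 3.1% were higher and 3.01% lower by that size in WT, and 1.68% and 1.18% in KO. Chac1, which degrades glutathione and is known as a stress-induced gene, was higher by 2.21 in WT and 1.13 in KO. Slc7a11, the cystine carrier that feeds glutathione synthesis and a known NRF2 target, was higher by 0.97 in WT and 0.61 in KO. Abcc4, an efflux pump, was at least 2.31-fold lower with fructose in WT, against the background level, and differed by -1.01 (log2) in KO. Gss, glutathione synthetase, differed by 0.062 in WT and -0.0019 in KO.

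In the thioredoxin and peroxiredoxin list, the median fructose differences were 0.049 in WT and 0.10 in KO. At least 2-fold lower were 0 of 14 detected genes in each genotype, beside 3.01% of all genes in WT and 1.18% in KO. At least 2-fold higher was 1 of 14 in each, beside 3.1% and 1.68%. That gene was Txnip, a thioredoxin-binding protein and known ChREBP target, higher by 3.88 in WT and 1.26 in KO. Its KO call was lost, leaving 0, when probe sets with several symbols were included, and the WT count was 2 with median centring, repeated quantile normalization or loess. Txnrd3 was higher by 0.98 and 0.59, and Txnrd2, the mitochondrial reductase, was lower, at -0.45 and -0.35, beside -0.069 and 0.10 for Txnrd1.

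The conjugation, carbonyl reduction and transport genes known as NRF2 targets in liver were lower with fructose more often than higher. Among the 10 genes, the glutathione ligase subunits were higher in both genotypes, and Nqo1 and Gsr were lower in both. Of 17 detected genes of this list, 5 were above 0 in WT and 2 in KO. Over all detected genes 47.5% and 49.4% were above 0, and the medians of the list were -0.28 and -0.24. At least 2-fold lower were 3 in WT and 1 in KO, beside 3.01% and 1.18% of all genes, while 0 were higher, beside 3.1% and 1.68%. Gsta4, a glutathione transferase for lipid aldehydes, was measured at log2 10.12 (control) and 8.90 (fructose) in WT, and 10.47 (control) and 9.92 (fructose) in KO, a fructose difference of -1.22 in WT and -0.56 in KO. Cbr1, a carbonyl reductase, had differences of -1.12 in WT and -0.61 in KO. Cbr3 was below background on both fructose arrays, so it was at least 1.24-fold lower in WT and at least 1.29-fold lower in KO; with such values raised to background, the counts were 2 of 17 in WT and 0 in KO. Cyp2a5, a cytochrome P450 that shares sequence with its family and is uncertain for that reason, had differences of -0.97 in WT and -0.18 in KO. Whether probe sets read related genes was not tested for any gene of this list, the glutathione transferases included. Cyp2a5 and Gsta4 were also the 2 genes of this list at least 2-fold higher in KO than in WT in fructose medium, by 1.43 and 1.01. They were 2 of 16 detected in that comparison, beside 0.543% of all genes, and 0 were lower, beside 0.739%. With median centring 1 gene was higher by that size.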

How the data were processed

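The authors deposited log2 signal for each probe set, made with RMA and R 3.4.0 per the submitters' processing notes. RMA corrects background, equalises the distributions of the arrays and summarises probes, which hides any change common to all genes. The array's annotation version and its build: not given in the sources used here.

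Of 41345 probe sets, 23521 have 1 gene symbol in the platform table, 1814 several and 16010 are unnamed here; 23328 were matched by Entrez number to RefSeq (GRCm38.p6), for names only. Averaging probe sets in log2 left 22180 genes. Differences of log2 values were taken between 2 arrays in 4 comparisons and for the difference of the fructose effects. A call is a 2-fold difference in a gene detected in that comparison; no test was made, since 1 array per group gives no spread within a group. The 2-fold call was also run on simulated data with added shifts well past 2-fold. That checks the calling step, not the list counts or the noise of these arrays.

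The 10 genes and all lists were chosen with earlier results of these data known. The lists are NRF2 partners and control genes, glutathione supply and use, thioredoxin and peroxiredoxin system, NRF2-type phase II and transport, NADPH and carbon, heme and iron, other antioxidant enzymes, selective autophagy, and markers of hepatocytes, macrophages, endothelium, cholangiocytes and stellate cells. Named from each list were up to 6 genes past 2-fold in any comparison, or else the 2 with the largest difference, and the 3 nearest genes to a member past 2-fold. Further genes named as defining a list, or in the text beside the 10, were picked once their values were known. The alternatives tried were a loess correction (span 0.3), centring on the median, quantile normalization applied again, other filters and background levels, 1.5-fold and 3-fold calls, the brightest probe set, and probe sets with several symbols. Python 3.11.15, pandas 2.3.3 and statsmodels 0.14.6 were used.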

Additional observations from a re-analysis of the deposited data

Results flagged for a closer look

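Values of opposite sign in the 2 genotypes or the 2 media are listed here; the differences were not tested, each rests on 1 array per group, and all are small. The fructose effect on Nfe2l2 was 0.083 in WT and -0.019 in KO, a difference of -0.10. The fructose effect on Txnrd1 was -0.069 in WT and 0.10 in KO, a difference of 0.17, and its genotype values were -0.059 in control medium and 0.11 in fructose medium, which differ by the same 0.17. The genotype value of Keap1 was -0.0035 in control medium and 0.19 in fructose medium, a difference of 0.19, and its 2 probe sets disagree. The genotype value of Gsr was -0.055 in control medium and 0.058 in fructose medium, a difference of 0.11. The genotype value of Sqstm1 was 0.11 in control medium and -0.066 in fructose medium, a difference of -0.18.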

How the results depend on the processing

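No paired analysis was possible because each group has 1 array and the labels carry no replicate numbers. The counts of members past 2-fold in the 4 comparisons of 2 arrays were the same under every rescaling, filter, background level and choice of probe sets tried, and at 1.5-fold, and those for the difference of the fructose effects under centring, repeated quantile normalization and the brightest probe set, the settings run for it; at 3-fold the members higher with fructose were 0 in WT and 0 in KO, since Hmox1 lies between 2-fold and 3-fold. The strict motif form matched 0 members. The median of the 10 fructose differences ranged from 0.13 to 0.20 in WT and from 0.11 to 0.19 in KO. Median centring, repeated quantile normalization and loess moved no member's value by more than 0.062; centring and loess turned the sign of the genotype values of Keap1 and Gclc in control medium, and centring that of the Srxn1 difference of effects, all near 0. The brightest probe set moved Keap1, to -0.21 for KO minus WT in fructose medium. Over all genes, calls with fructose in WT numbered 335 higher and 326 lower at 2-fold, 1023 and 1172 at 1.5-fold, and 103 and 57 at 3-fold; in KO 181 and 127, 657 and 618, and 47 and 18. For the genotypes in control medium they were 4 and 21, 51 and 118, and 0 and 2 (1 higher with a stricter filter or values raised to background), and in fructose medium 58 and 79, 262 and 306, and 8 and 21. Centring and loess gave 2 genes higher with fructose in WT in the glutathione list and 2 in the thioredoxin list, in place of 1 each, the thioredoxin count also being 2 with repeated quantile normalization. The brightest probe set gave 2 in the glutathione list in each genotype. Including probe sets with several symbols, which changes the value of Txnip, gave 0 in the thioredoxin list in KO. Centring gave 1 phase II gene higher in KO in fructose medium in place of 2. Without the filter on dim genes, the macrophage medians for KO minus WT were -0.31 in control medium and -0.44 in fructose medium. With a stricter filter these medians were -0.77 and -0.70. Raising values to the background was chosen after seeing the data.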

Other observations

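Among genes of heme and iron handling outside the 10, 0 of 10 detected genes differed by 2-fold with fructose in either genotype. Over all detected genes 3.1% were higher and 3.01% lower by that size in WT, and 1.68% and 1.18% in KO. The medians of this list were -0.018 in WT and -0.20 in KO. Tfrc, the transferrin receptor, was lower with fructose, at -0.80 in WT and -0.72 in KO, as was Fech, ferrochelatase, which puts iron into heme, at -0.49 and -0.63. Hmox2, the constitutive heme oxygenase, differed by 0.010 in WT and -0.17 in KO, beside 1.501 and 1.40 for Hmox1. Fth1, the ferritin heavy chain and a known NRF2 target, differed by 0.070 and 0.029.

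Antioxidant enzymes not mainly driven by NRF2 showed 0 of 9 detected genes past 2-fold with fructose in either genotype. Among all detected genes 3.1% were higher and 3.01% lower by that size in WT, and 1.68% and 1.18% in KO. The medians of these enzymes were -0.021 in WT and -0.043 in KO. Mt2, a metallothionein, was higher by 0.41 and 0.33, and Park7 was lower, at -0.45 in WT and -0.043 in KO. In the NADPH and carbon list of 5 detected genes the medians were 0.0038 in WT and 0.064 in KO. Me1, malic enzyme, known as a target of both NRF2 and ChREBP, was higher with fructose by 0.84 in WT and 0.064 in KO, and its KO minus WT value in fructose medium was -1.41.

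Around Sqstm1, 0 of 14 detected autophagy genes differed by 2-fold with fructose, with medians of 0.066 in WT and -0.049 in KO. Past 2-fold in WT were 3.1% (higher) and 3.01% (lower) of all detected genes, and 1.68% and 1.18% in KO. Ulk1, the kinase that starts autophagy, had fructose differences of 0.51 in WT and -0.47 in KO, and a KO minus WT value of -1.28 in fructose medium. Nbr1, an autophagy receptor related to Sqstm1, was higher with fructose by 0.68 in WT and 0.10 in KO. Atg7 was lower, at -0.78 in WT and -0.65 in KO, as was Map1lc3b, at -0.75 and -0.43. At 1.5-fold in WT, 1 of the 14 was higher and 2 were lower, beside 9.46% and 10.8% of all genes. In KO 0 were higher and 1 was lower, beside 6.11% and 5.75%.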
